A study of Mus musculus with 2 samples.

Results

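MicroRNA genes that lie within host genes, outside the large microRNA families, were followed in newborn mouse kidney. The 10 genes were Mir22, Mir744, Mir151, Mir652, Mir139, Mir140, Mir872, Mir423, Mir708 and Mir149. They are 10 of 1973 microRNA genes in the tables, and they were chosen by name as well counted genes, so their high level is a description and carries no test. The series holds 1 group of 2 samples, kidney tissue of the strain B6NCrl taken on postnatal day 0, with no treatment or genotype named in the labels. Each library came from the 2 kidneys of 1 pup, both pups were numbered under the same pregnancy, and the labels give sex as not collected. MicroRNA sequencing reads the small RNA fraction of total RNA. The depth was 5832192 counts for pup 1 and 3846704 for pup 2, all on the strand of the counted gene.

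A microRNA is cut from a hairpin in a longer transcript, and either arm of the hairpin can become the mature strand of about the length of the sequences printed here. The seed, bases 2 to 8 of the mature strand, does most of the pairing with target messenger RNAs, which are then repressed. A hairpin inside a host gene on the same strand can be carried by the host's own transcript or by a transcript with its own start. Host gene RNA was not measured here, so levels are set out by host gene without a value for the host.

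Of the 10 genes, 9 matched the RefSeq table of microRNA sequences (GRCm38.p6), with 17 mature arms. The arms are shown because the members are told apart by their seeds, which are in capitals, 5′ to 3′. Counts belong to a hairpin gene, so which arm gave the reads is not known.
miR-22-3p: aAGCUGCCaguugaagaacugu
miR-22-5p: aGUUCUUCaguggcaagcuuua
miR-744-5p: uGCGGGGCuagggcuaacagca
miR-744-3p: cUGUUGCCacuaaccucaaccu
miR-652-3p: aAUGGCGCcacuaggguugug
miR-652-5p: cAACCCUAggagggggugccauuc
miR-139-5p: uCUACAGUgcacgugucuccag
miR-139-3p: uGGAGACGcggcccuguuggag
miR-140-3p: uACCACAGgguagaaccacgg
miR-872-5p: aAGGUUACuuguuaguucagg
miR-872-3p: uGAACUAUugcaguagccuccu
miR-423-5p: uGAGGGGCagagagcgagacuuu
miR-423-3p: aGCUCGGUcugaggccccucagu
miR-708-5p: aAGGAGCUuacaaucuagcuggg
miR-708-3p: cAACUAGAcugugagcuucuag
miR-149-5p: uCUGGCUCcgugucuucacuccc
miR-149-3p: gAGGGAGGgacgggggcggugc

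No seed among these 17 arms occurred in the arm of another member. Mir151 and miR-140-5p are not among the 17 and were not searched. Outside the members, 2 genes with a mean of at least 1 CPM (counts scaled to the library total) carried an arm with the seed of one of the 17. These were Mir28a, whose miR-28a-5p has the seed of miR-708-5p, at 1163 ± 154 CPM, and Mir1943, whose miR-1943-5p has the seed of miR-149-3p, at 2.02 ± 0.289 CPM (SD, n = 2). The arms of Mir149 differ most in base composition, with G and C at 81.8% of bases in miR-149-3p and 60.9% in miR-149-5p. The lowest share was that of miR-872-5p, at 38.1%.

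The label of the group was checked on its genes. On mm10, all 10 hairpins lie inside a host gene on their own strand. No other annotated microRNA gene lies within 10 kb of any member, and the host genes hold only 1 other, Mir6394 in Tenm4. Mir6394 had 0 counts in both pups, which allows up to 0.514 CPM in pup 1 and 0.780 CPM in pup 2. For 9 of the 10 genes the hairpin shares no stretch of 22 bases with a microRNA hairpin elsewhere. Mir708 is the exception. Its hairpin shares 23 bases with that of Gm23134, in the gene Blcap on chromosome 2 from 157562361 to 157562447. The shared stretch covers 22 of the 23 bases of miR-708-5p, from base 2 on. Reads that lack the first base of that arm can match both places, and multimapping reads are listed apart from gene counts, so the level of Mir708 is uncertain. Gm23134 itself had 12 counts in pup 1 and 8 in pup 2.

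The 10 genes summed to 3.90% of the counts of pup 1, with a 95% Wilson interval of 3.88 to 3.91. For pup 2 the sum was 3.92%, with an interval of 3.90 to 3.94. These bounds cover counting error alone, since the reads carry no molecular identifiers and several can come from the same molecule. Mir22 alone supplied 29.6% of the members' counts in pup 1 and 30.0% in pup 2. Its level was 8.60 times that of Mir149, the lowest member, in pup 1 and 9.06 times in pup 2. Levels and ratios between genes refer to reads, as the read yield per molecule was not measured. Multimapping reads are not in the gene counts, so genes with a like copy elsewhere can be undercounted. A stretch of 22 bases shared with another hairpin occurs in 61 of the 324 genes whose mean count reached 10, and in 1 member. Shares and ranks thus refer to uniquely placed reads and can be raised for the members. In whole tissue, fewer cells of a type and less microRNA per cell cannot be told apart.

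**Figure D1:**
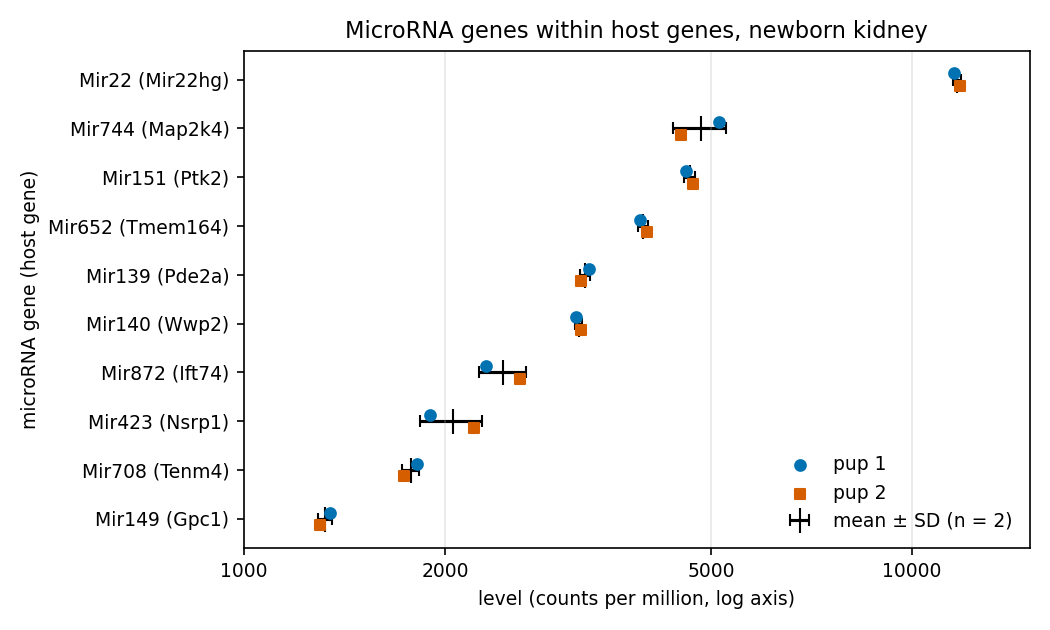
Level of each of the 10 microRNA genes in CPM (log axis), with pup 1 as circles, pup 2 as squares and black marks for the mean ± SD of both pups. Mir22 stands apart at 11547 and 11784 CPM, the pups lie farthest apart for Mir744, Mir872 and Mir423, and the order of Mir744 and Mir151 differs between the pups.

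The members were not the only abundant microRNAs within host genes. Of the 1973 genes, 1033 lie within a host gene on their strand, and these held 66.5% of counts in pup 1 and 67.0% in pup 2. The members made up 5.86% of those counts in each pup. At or above the level of Mir149 stood 56 microRNA genes within host genes, of which 46 are not members. These 46 include genes of large families, such as Mirlet7g and Mir30e. Those outside such families were not counted apart, here or in the shares above. The rule gives no count threshold. Next above Mir149 among microRNAs within host genes was Mir200a, at 1373 ± 25.8 CPM, and next below was Mir28a in Lpp.

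**Figure D2:**
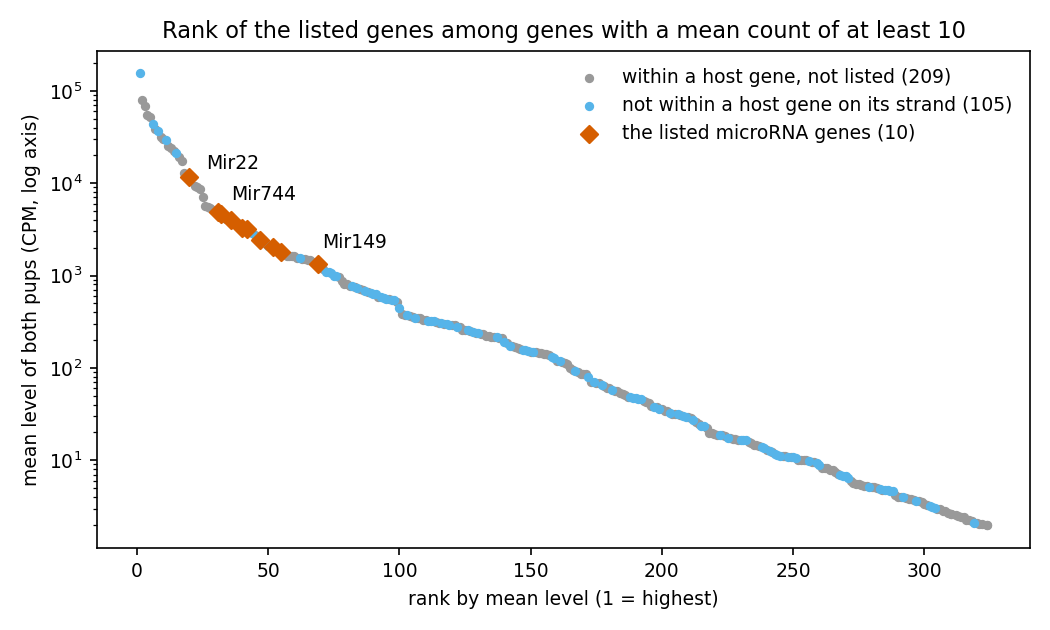
Mean level (CPM, log axis) against rank for 324 microRNA genes whose mean count reached 10. Diamonds mark the 10 members between rank 20 (Mir22) and rank 69 (Mir149), grey points 209 other genes within a host gene, and blue points 105 genes without a host gene on their strand.

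Mir22 is the member whose hairpin lies in an exon of its host, Mir22hg, a noncoding gene of 5.14 kb that is known as the primary transcript of this microRNA. Mir22 (ENSMUSG00000065529.1; chromosome 11, 75463716 to 75463810, plus strand) falls in an exon of both Mir22hg transcripts. It also falls in an exon of 1 of 4 transcripts of the overlapping gene Tlcd2, a transcript that is not annotated as coding. Its counts were 67342 in pup 1 and 45331 in pup 2, or 11547 and 11784 CPM. The Wilson intervals were 11460 to 11634 CPM and 11677 to 11893 CPM. The mean of 11665 ± 168 CPM put it at rank 20 of all genes by uniquely placed reads. The next gene below, Mir23a at 11573 ± 485 CPM, was not apart from Mir22 by more than the SD, while Mirlet7d above it, at 12379 ± 51.5 CPM, was.

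A pair of members lies in genes of protein kinases. Mir744 (ENSMUSG00000076460.1; chromosome 11, 65734733 to 65734832, minus strand) lies in Map2k4, which encodes a kinase that activates the JNK pathway. In transcript Map2k4-201 it is in intron 3 of 10, an intron of 15.6 kb, only 359 bases past the upstream exon. It had 29960 counts in pup 1 and 17368 in pup 2, which are 5137 and 4515 CPM (mean 4826 ± 439.8, rank 31). Mir151 (ENSMUSG00000065612.1; chromosome 15, 73254815 to 73254882, minus strand) lies in Ptk2, the gene of focal adhesion kinase, which passes on signals from cell contacts with the matrix. It is in intron 22 of 31 of Ptk2-201, 2.15 kb past the upstream exon. It had 26743 and 18100 counts, which are 4585 CPM in pup 1 and 4705 CPM in pup 2 (mean 4645 ± 84.8, rank 32). Mir744 was the higher of this pair in pup 1, by 1.12 times, and the lower in pup 2, at 0.960 times, so 2 pups do not resolve their order. A gene on the other strand overlaps the place of Mir151, but no read was counted opposite to Mir151 in either pup.

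Mir139 and Mir140 lie in genes of other enzymes. Mir139 (ENSMUSG00000065446.1; chromosome 7, 101475376 to 101475443, plus strand) lies in Pde2a, which encodes a phosphodiesterase that breaks down cyclic nucleotides. It is in intron 2 of 31 of Pde2a-202, an intron of 29.9 kb. The annotation also places it in intron 3 of Gm45837, a coding gene that overlaps Pde2a. It had 19125 counts in pup 1 and 12310 in pup 2, or 3279 and 3200 CPM (mean 3240 ± 55.9, rank 40). Mir140 (ENSMUSG00000065439.1; chromosome 8, 107551244 to 107551313, plus strand) lies in Wwp2, the gene of a ubiquitin ligase, and is best known from cartilage. It is in intron 16 of 23 of Wwp2-201, which at 2.14 kb is among the shorter introns here, and a retained-intron transcript of Wwp2 has an exon there. It had 18328 and 12300 counts, or 3143 CPM in pup 1 and 3198 CPM in pup 2 (mean 3170 ± 38.9, rank 42). Mir139 exceeded Mir140 in both pups, by 1.04 times in pup 1 and 1.001 times in pup 2, and their Wilson intervals overlap in pup 2.

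The next members lie in coding genes of other kinds. Mir652 (ENSMUSG00000076011.1; chromosome X, 142739000 to 142739097, plus strand) is the X-linked member, in Tmem164, which encodes a transmembrane protein. It is in intron 2 of 6 of Tmem164-201, an intron of 69.1 kb, 56.05 kb past the upstream exon. Its counts of 22795 and 15406 are 3908 CPM in pup 1 and 4005 CPM in pup 2 (mean 3957 ± 68.2, rank 36). Mir872 (ENSMUSG00000077921.1; chromosome 4, 94665157 to 94665237, plus strand) lies in Ift74, which encodes a subunit of the transport particles that build cilia. It is in intron 13 of 19 of Ift74-201, 2.49 kb past the upstream exon, and this is the sole one of 3 Ift74 transcripts that spans it. Its counts of 13437 and 9954 are 2304 CPM in pup 1 and 2588 CPM in pup 2 (mean 2446 ± 201, rank 47). Mir423 (ENSMUSG00000065518.2; chromosome 11, 77078064 to 77078172, minus strand) lies in Nsrp1, the gene of a nuclear speckle protein that takes part in splicing. Its place is intron 1 of 6 of Nsrp1-201, 206 bases past the upstream exon and 0.263 kb from the 5′ end of the gene. At 1.63 kb this is the shortest of the 9 introns. Its counts of 11085 and 8493 are 1901 CPM in pup 1 and 2208 CPM in pup 2 (mean 2054 ± 217, rank 52).

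The remaining members lie in genes of cell surface proteins, each in intron 1 of the coding transcript used. Mir708 (ENSMUSG00000076143.1; chromosome 7, 96249424 to 96249532, plus strand) lies in Tenm4, which encodes a teneurin, a large transmembrane protein of cell contacts. With 739.8 kb Tenm4 is the longest host here, and the intron of Tenm4-202 that holds Mir708 spans 143 kb. Mir708 had 10574 counts in pup 1 and 6687 in pup 2, or 1813 and 1738 CPM (mean 1776 ± 52.8, rank 55). Mir149 (ENSMUSG00000065470.1; chromosome 1, 92850378 to 92850443, plus strand) lies in Gpc1, which encodes glypican 1, a heparan sulfate proteoglycan at the cell surface. It is in an intron of 21.2 kb of Gpc1-201, 18.3 kb past the upstream exon, and 1 of 5 Gpc1 transcripts spans it. Mir149 had 7835 and 5006 counts, or 1343 CPM in pup 1 (Wilson interval 1314 to 1373) and 1301 CPM in pup 2 (1266 to 1338), with a mean of 1322 ± 29.7 and rank 69. The tables listed no opposite-strand reads for 9 of the members, while Mir708 had 8 such reads in pup 1 and 9 in pup 2.

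**Figure D3:**
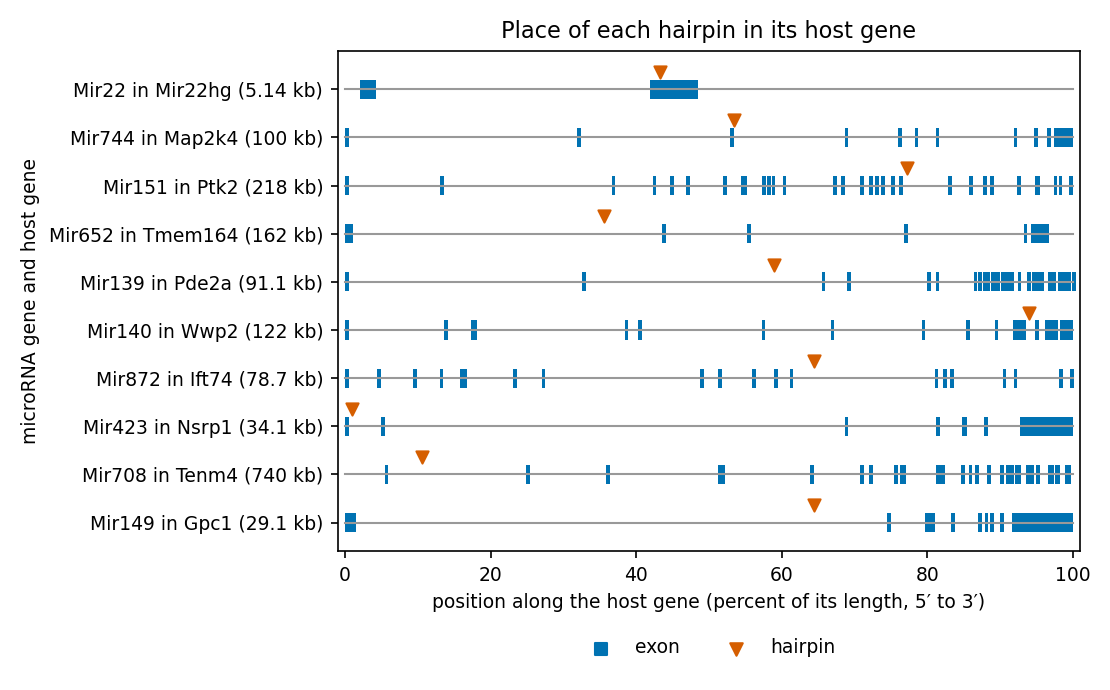
Place of each hairpin (triangle) along its host gene in percent of the gene's length from its 5′ end, with the exons of 1 transcript as bars drawn at a minimum visible width. Mir22 sits over an exon of Mir22hg, and the 9 others sit in introns, Mir423 at 0.770% and Mir140 at 94.0% of the length of the host.

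Of 9 neighbouring pairs in the order of the members, 8 kept their order in both pups and 8 were apart by more than the larger SD. Mir744 and Mir151 were the exception in both respects. Among all genes the order is denser, so the gene next to a member cannot lie farther off than the next member. Of 19 comparisons of a member with the gene just above or just below it, 12 lay within the larger SD. Among these were Mir744 and Mirlet7b (5062 ± 2.87 CPM), Mir652 and Mirlet7f-2 (4015 ± 60.6), Mir139 and Mir125a (3215 ± 36.2), and Mir872 and Mir296 (2429 ± 262). Others were Mir423 and Mir195a (2071 ± 23.1), and Mir708 and Mir107 (1763 ± 148). Mir140 and Mir125a were apart by more than the larger SD but changed order between the pups. Mir125a was the higher in pup 1 (3240 against 3143 CPM) and Mir140 in pup 2 (3198 against 3189 CPM). By the SD, Mir149 was apart from both its neighbours, Mir200a and Mir298 (1283 ± 0.0951 CPM). An SD of 2 values can lie below counting error, so it does not show that genes are resolved. In pup 2 the 1283 CPM of Mir298 lay within the Wilson interval of Mir149 (1266 to 1338 CPM).

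The hairpins of the members ranged from 66 to 109 bases, with a median of 88 against 85 for all 324 genes whose mean count reached 10. G and C made up 39.5% (Mir872) to 68.2% (Mir149) of the hairpin, with a median of 54.3% against 50% over all 324. RNAfold, which predicts the most stable fold of an RNA, gave folding energies from -51.9 kcal/mol for Mir423 to -31.4 kcal/mol for Mir872. The median was -41.7 kcal/mol against -37.05 over the 324. The share of paired bases in the predicted fold was highest in Mir140, at 85.7%, and lowest in Mir708, at 64.2%. With 10 chosen genes these are descriptions.

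Mir708 has a relative in Mir28a, and their arms are printed for comparison with the seed in capitals. By this seed miR-708 is usually grouped with miR-28. The member Mir151 was also listed with the miR-28 genes, but none of its mature arms was available for comparison.
miR-708-5p: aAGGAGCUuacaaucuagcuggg
miR-28a-5p: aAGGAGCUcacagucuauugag
miR-28b: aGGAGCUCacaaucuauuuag
Over the 22 positions that both have, counted from 1 at the 5′ end, miR-708-5p and miR-28a-5p are identical at 16. The differences from miR-708-5p to miR-28a-5p are U9C, A13G, G18U, C19U, U20G and G21A. The 3p arms share a run of 8 bases that starts 1 base later in miR-708-3p. Their seeds differ as counted from the 5′ end, but the same offset lines up most bases on either side of that run. The longest run that miR-28b shares with miR-28a-5p is 11 bases, from base 1 of miR-28b and base 2 of miR-28a-5p. The seeds of these arms differ through that offset of 1 base, at which most of the later bases match too. Mir28a (chromosome 16, 24827855 to 24827940, in Lpp) had 6146 counts in pup 1 and 4890 in pup 2, or 1054 and 1271 CPM. Mir708 thus stood above Mir28a 1.72 times in pup 1 and 1.37 times in pup 2. Mir28b had 2 counts in each pup, which is within the floor of 3 counts that a count of 0 allows.

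The pups were then compared gene by gene, the sole contrast that the design holds. An exact two-sided binomial test set both counts of a gene against the effective library sizes, with Benjamini-Hochberg adjustment over 324 genes and a threshold of 0.05. It compares the reads of 2 libraries, not conditions, and takes no other error into account than that of counting. Every log2 ratio is that of pup 2 over pup 1. Of all 324 genes 33.6% passed, 12.7% as higher and 21.0% as lower in pup 2. Of the 10 members 6 passed, Mir872 and Mir423 as higher in pup 2 and Mir744, Mir139, Mir708 and Mir149 as lower. Abundant genes pass this test at small ratios: of the 64 other genes with a mean of at least 1000 CPM, 51 passed, or 79.7%.

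The size of the differences was small. Mir744 had the largest, a log2 ratio of -0.21 (-0.23 to -0.18 as the 95% counting interval, exact adjusted p = 1.2e-50). Mir423 followed at 0.20 (0.15 to 0.24, adjusted p = 1.1e-19 by the same exact test) and Mir872 at 0.15 (0.11 to 0.18, adjusted p = 1.6e-13, exact). The next 3 were lower in pup 2 by less, Mir708 at -0.082 (exact adjusted p = 0.00137), Mir149 at -0.067 (exact adjusted p = 0.033) and Mir139 at -0.056 (exact adjusted p = 0.00316). The call of Mir139 was lost with library totals as scaling, with an adjusted p of 0.104 by the exact test. That of Mir149 was lost with library totals (0.211), DESeq2 size factors (0.123) and no filter on low counts (0.0709). Mir22, Mir151, Mir652 and Mir140 did not pass, with log2 ratios of 0.0083, 0.016, 0.014 and 0.0039 and counting intervals that all lay between -0.029 and 0.044. With library totals, Mir22 (0.029, adjusted p = 0.00378) and Mir151 (0.037, adjusted p = 0.027) passed the exact test as higher in pup 2, and Mir22 also passed with DESeq2 size factors (0.023, adjusted p = 0.0339).

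**Figure D4:**
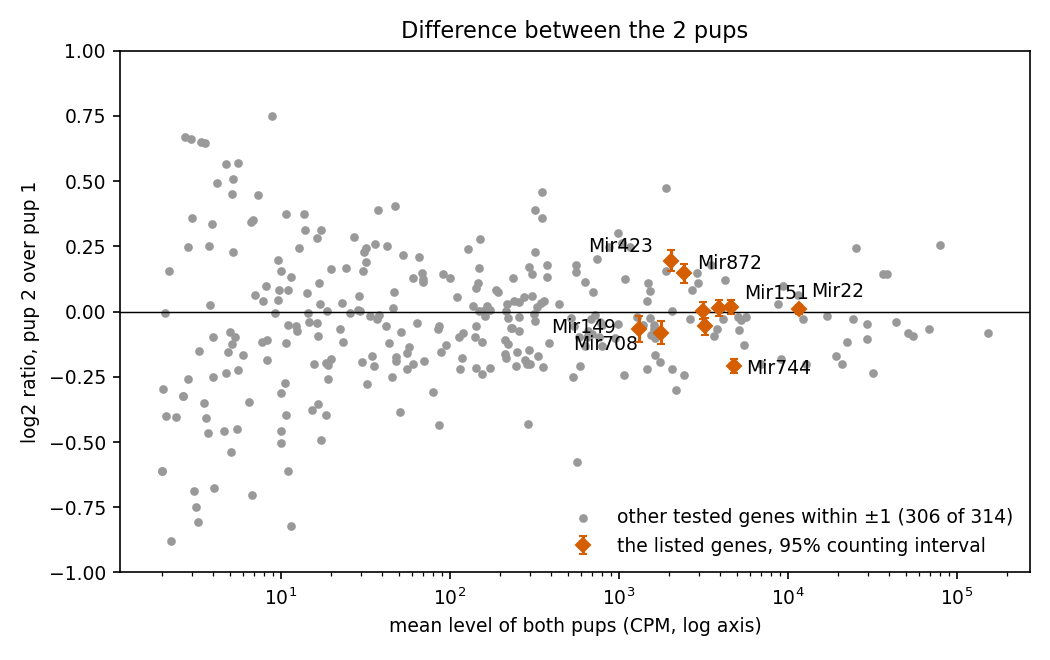
Log2 ratio of pup 2 over pup 1 against mean level (CPM, log axis) for the 10 members (diamonds with 95% counting intervals) and for 306 of the 314 other tested genes, the 8 others lying beyond ±1. The members lie between -0.21 (Mir744) and 0.20 (Mir423).

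The median absolute log2 ratio was 0.062 over the 10 members, 0.15 over all 324 tested genes and 0.095 over the 64 other genes of at least 1000 CPM. By the size of the ratio, Mir744 ranked 114 and Mir140 318 of 324. edgeR's exact test with a dispersion common to both pups, chosen after seeing the data, passed 0 of the 10 members and 0.309% of 324 genes. Of the members 0, and of all genes 14, had an unadjusted p under 0.05 in it. That dispersion corresponds to a biological coefficient of variation of 9.29%, and it came from the very difference that is tested. Mir28a, the relative of Mir708, went the other way, at 0.25 (0.20 to 0.30, exact adjusted p = 2.6e-18).

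A list of 51 other microRNAs, drawn up as lying within host genes, was set beside the members, and 49 of them had a row. The annotation places 46 of these in a host gene on their strand, and not Mir484, Mir674 and Mir328. At 10 CPM or more in both pups stood 41. Of 44 whose mean count reached 10, 4 passed the exact test as higher and 15 as lower in pup 2. The median log2 ratio of these 44 was -0.087. That median was 0.0061 over the members and -0.042 over all 324 genes. The highest of the list were Mir126a in Egfl7 (79588 ± 10777 CPM), Mir335 in Mest, Mirlet7g in Wdr82, Mir26b in Ctdsp1, Mir21a in Vmp1 and Mir107 in Pank1 (1763 ± 148). Mir22 thus ranked below the first 5 of these and above Mir107.

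The tissue was set beside lists of markers. The lists were chosen with earlier results of these data known, so the values are a description and no test of the tissue. All 9 listed microRNAs of kidney and its cell types reached 10 CPM in both pups, with 30.0% of counts in pup 1 and 28.8% in pup 2. Most of that share was Mir10a and Mir10b, with means of 154440 and 68835 CPM. Mir192, Mir204 and Mir194-2 had means of 563, 378 and 296 CPM. Liver Mir122, the 3 leukocyte genes, 2 of 3 erythroid genes and 1 of 7 neural genes also reached 10 CPM in both pups. Reaching that level therefore does not tell kidney from these. Striated and heart muscle genes held 0.000892% and 0.000884%, with 4 of 8 at 0 counts, among them Mir1a-1 and Mir133b. A count of 0 sets no limit for genes with an identical copy, such as Mir1a-1 and the Mir124a genes. Multimapping reads are not in the gene counts, so the summed shares of muscle and neural genes can be too low. The neural gene Mir128-2 is a case, as its hairpin shares 22 bases with another. Neural genes held 0.00204% and 0.00218%, with 3 of 7 at 0, the Mir124a genes, and liver Mir122 held 0.00569% and 0.00442%. Pancreas genes had 1 of 2 at 0 and 8.6e-05% and 7.8e-05% of counts, and the 3 leukocyte genes held 0.0611% and 0.0561%. The erythroid genes Mir144, Mir451a and Mir486 summed to 0.0241% in pup 1 and 0.00988% in pup 2. That fall was Mir451a, with 1213 counts in pup 1 and 206 in pup 2, while Mir144 (32.2 and 42.9 CPM) and Mir486 (0.686 and 2.34 CPM) had the higher value in pup 2. Their part in the differences between the pups was not tested.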

How the data were processed

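Both kidney libraries were read from the deposited tables, which hold whole-number read counts per gene that the authors did not normalise. Reads were aligned to mm10 and counted over annotation release M4, per the deposited notes. The sources used here name no aligner, trimming or counting setting. The column whose sums fit counts on the strand of the gene was used. Multimapping reads took 30.3% and 31.0% of reads, unmapped reads 8.52% and 8.69%, and reads of no listed gene 2.91% and 2.92%. Such rows stayed out of totals and tests.

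Identifiers were matched without version to GENCODE M21 (same assembly). Of 1973 genes 1894 matched, and all 10 members matched with the same version. Hosts are genes that contain the hairpin on its strand, without small RNA genes. Introns are those of a principal coding transcript that spans the hairpin, the first by name where several are marked. The number of an intron depends on this choice.

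Tests used genes whose mean count reached 10, edgeR 4.0.16 TMM sizes and a prior count of 0.5. Simulated data with known changes were used to check the binomial test. The simulated counts held counting error only, so the check says nothing of variation between pups. DESeq2 1.42.0 size factors were an alternative, and folds came from RNAfold 2.7.2. Members and lists were chosen with earlier results of these data known. Named were the members, the miR-28 genes, each member's neighbours in level, genes sharing a seed at 1 CPM or more, nearby microRNA genes and the 6 highest of the other list. No replicate group beyond the 2 pups exists, and p-values cover counting error only.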

Additional observations from a re-analysis of the deposited data

Results flagged for a closer look

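Reads opposite to Mir708, outside the strand used for the counts, were above the 3 counts that a count of 0 allows in both pups, with 8 in pup 1 and 9 in pup 2. They equal 0.0757% and 0.135% of the reads on the strand of the gene. Mir708 was the sole member with any such read, while 29 of the 324 tested genes had at least 1 and 5 were above that limit in both pups. The source of these reads was not tested.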

How the results depend on the processing

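The summed share of the members, 3.91% of counts, came to 3.83% with reads on either strand, 4.62% without Mir10a in the total and 2.26% of all reads. Their median level, 3205 CPM, came to 3140, 3790 and 1853 CPM in the same order, because the total changed. With 1 pup left out, the share ran from 3.90% to 3.92% and the median level from 3199 to 3211 CPM. Members called between the pups numbered 5 or 6 under the scaling, filter and strand alternatives, and all genes called numbered 95 to 110 against 109. With the edgeR exact test, chosen after seeing the data, these counts were 0 and 1. No member changed the direction of its ratio under any alternative run. The order of the members kept 8 of 9 pairs with reads on either strand. With protein-coding hosts only, all 10 genes still had a host, Tlcd2 in the case of Mir22. No paired analysis was possible because the series holds 1 group. Leaving out a pup cannot give a comparison between pups. Depth sets a floor of 0.514 CPM in pup 1 and 0.780 CPM in pup 2.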
